A study of Homo sapiens with 8 samples.

Results

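The microRNAs hsa-miR-10a-5p, hsa-miR-10b-5p, hsa-miR-196a-5p and hsa-miR-196b-5p are the 4 mature strands examined here, taken by name as microRNAs encoded inside the HOX gene clusters. They are 4 of 342 microRNA rows and of 2962 small RNA features in the count table, and all 4 passed the filter on low counts. All cells were HEK293, an established human embryonic kidney line bought from ATCC, carried through lipid transfection with Lipofectamine RNAiMax at 50 nM and collected after 48 h. In 4 libraries the transfected RNA was a scramble control mimic and in 4 it was a mimic of the tRNA-Asp-GTC 3′ tDR, a fragment from the 3′ end of that tRNA. Sequencing used OTTR-seq, a method that adds both adapters while each small RNA is reverse transcribed. The control cells therefore share the transfection and an RNA mimic with the tDR cells, and an untransfected group was not analysed here. Whether the replicates came from different cultures is not stated in the labels, and the p-values reflect only library-to-library spread, part of which may be technical.

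HOX genes encode the transcription factors that give cells their place along the head-to-tail axis, and a cell tends to keep the HOX code of the region it came from. The microRNAs embedded in these clusters are often transcribed together with nearby HOX genes, miR-10 on the 3′, more anterior side and miR-196 towards the posterior side. Mature microRNAs guide Argonaute proteins to messenger RNAs through their seed, bases 2 to 8, and miR-196 is a well known repressor of HOXB8 and other HOX messenger RNAs.

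The mature strands show how the set divides by seed, in capitals, and how closely its members resemble microRNAs from elsewhere in the genome (RefSeq, GRCh38.p14). Of the 4, hsa-miR-10b-5p is named only.
hsa-miR-10a-5p: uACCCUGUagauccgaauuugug
hsa-miR-196a-5p: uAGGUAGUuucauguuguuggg
hsa-miR-196b-5p: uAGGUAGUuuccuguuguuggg
hsa-miR-99a-5p: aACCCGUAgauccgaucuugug
hsa-miR-615-3p: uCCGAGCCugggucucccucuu
The miR-196 strands share the seed AGGUAGU and differ at 1 of 22 bases, A12C, counted from 1 at the 5′ end with the miR-196a base first. The counting could therefore move reads between them. The strand of miR-99a, a relative of miR-10 outside the HOX clusters, has another seed but shares the run GUAGAUCCGA with miR-10a, at bases 7 to 16 of miR-10a and 6 to 15 of miR-99a. hsa-miR-615-3p is a further HOX-cluster microRNA, with a seed of its own.

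The letters of the miR-196 seed also lie in let-7, one base further in, which is shown here with those letters in capitals.
hsa-let-7a-5p: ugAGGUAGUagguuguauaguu
They occupy bases 3 to 9 of let-7a. Searched on the strand of the mature RNA, AGGUAGU was present in 10 of 310 microRNA rows with a RefSeq sequence of the same name (3.23%), at bases 2 to 8 in the 2 miR-196 strands and from base 3 in 8 rows of the let-7 and miR-98 family. A match of letters is a description and does not show a shared target.

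The hairpins lie in all 4 HOX clusters (GRCh38, GENCODE release 29). MIR10A is at chr17:48579838-48579947 on the minus strand, in an intron of HOXB3 and within an exon of a HOXB4 transcript. MIR10B is at chr2:176150303-176150412 on the plus strand, in an intron of HOXD3 and 809 bases before HOXD4. hsa-miR-196a-5p has 2 source genes with the same mature sequence, MIR196A1 at chr17:48632490-48632559 on the minus strand, in an intron of HOXB7, and MIR196A2 at chr12:53991738-53991847 on the plus strand, in an intron of HOXC6 and 1458 bases past HOXC10. Its count cannot be divided between them. MIR196B is at chr7:27169480-27169563 on the minus strand, within an exon of a HOXA9 transcript and 1027 bases from HOXA10.

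The libraries held 4016295 to 10246336 counts, of which 28455 to 97173 were microRNA counts. MicroRNAs were 0.719% ± 0.203 of the scramble libraries and 0.497% ± 0.145 of the tDR libraries (SD, n = 4 each), with the lowest values in tDR libraries 3 (0.355%) and 4 (0.414%) and the highest in scramble library 4 (0.948%). The groups overlapped. Levels below are counts scaled to library size (CPM) with TMM factors over all features, which move with this percentage, and shares of all microRNA counts, which do not. As a check of the cell type, 4 of 9 microRNAs typical of kidney epithelium had counts in the rows analysed here and summed to 11.7 to 17.3 CPM in the scramble and 8.24 to 13.4 CPM in the tDR libraries, led by hsa-miR-194-5p. Of 7 neural microRNAs 6 had counts, summing to 53.1 to 80.9 and 41.8 to 79.7 CPM and led by hsa-miR-9-5p. Blood (2 of 7 with counts), endothelial (2 of 2), muscle (2 of 6) and fibroblast (2 of 5) markers summed to at most 9.95 CPM in any library, and the liver marker and the 8 pluripotency markers had no counts in the rows analysed here. None of these sums separated the groups.

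In the scramble libraries the HOX-cluster microRNAs were of middle to high abundance. hsa-miR-196b-5p ranked 23rd among the 342 microRNA rows, hsa-miR-10a-5p 29th, hsa-miR-196a-5p 43rd and hsa-miR-10b-5p 56th. Per base of mature sequence, among the 310 rows with one, the ranks were 23 for hsa-miR-196b-5p, 29 for hsa-miR-10a-5p and 42 for hsa-miR-196a-5p. The ranks thus changed little, but the set of rows differs too, so the effect of length alone is not shown. The strands with a sequence are 22 or 23 bases long. Together the 4 made up 1.76% ± 0.141 of microRNA counts (SD, n = 4), while the 3 most abundant microRNAs, hsa-miR-19b-3p, hsa-miR-92a-3p and hsa-miR-19a-3p of the miR-17-92 cluster, made up 23.6% ± 2.80, 11.7% ± 1.22 and 8.26% ± 0.796.

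**Figure D1:**
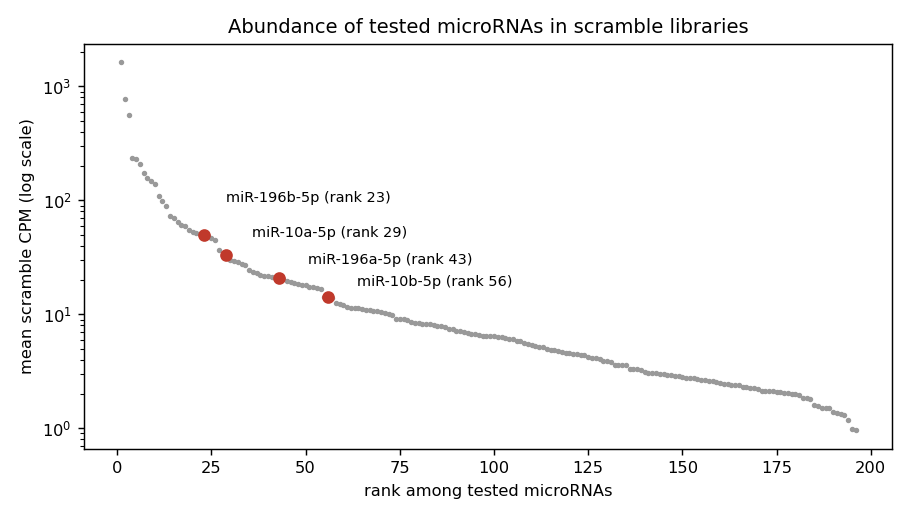
Mean scramble CPM (log axis) of each tested microRNA against its rank, with 1 grey point per microRNA and the 4 HOX-cluster microRNAs in red. They sit at ranks 23, 29, 43 and 56, well below the 3 most abundant microRNAs.

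Each member stood beside microRNAs of nearly the same level. hsa-miR-196b-5p, at 49.7 ± 6.80 CPM, lay between hsa-miR-424-5p (50.2 ± 10.7 CPM) and hsa-miR-9-5p (48.9 ± 10.3 CPM). hsa-miR-10a-5p, at 33.0 ± 8.22 CPM, lay between hsa-let-7f-5p (33.5 ± 6.48 CPM) and hsa-miR-6516-3p (30.0 ± 2.54 CPM). hsa-miR-196a-5p, at 20.8 ± 2.27 CPM, lay between hsa-miR-23a-3p (20.9 ± 4.71 CPM) and hsa-miR-101-3p (20.4 ± 5.56 CPM), and hsa-miR-10b-5p, at 14.2 ± 4.69 CPM, between hsa-miR-532-3p (14.3 ± 3.33 CPM) and hsa-miR-107 (13.9 ± 2.24 CPM). None of these gaps exceeded the member's own SD over 4 libraries.

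Among themselves the members kept 1 order in the scramble libraries, miR-196b, miR-10a, miR-196a and miR-10b, in 4 of 4 libraries. hsa-miR-196b-5p was 1.51 times hsa-miR-10a-5p on the scramble means, with overlapping ranges. hsa-miR-10a-5p was 1.58 times hsa-miR-196a-5p with separate ranges. hsa-miR-196a-5p was 1.47 times hsa-miR-10b-5p, again with overlapping ranges. In the tDR libraries miR-196b and miR-10a kept the first and second place in 4 of 4 libraries, whereas miR-196a stood above miR-10b in 2 of 4, and their means differed by 1.04 times, less than the spread.

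The comparison of tDR with scramble asks whether supplying the tRNA fragment changes these microRNAs. None of the 4 was called: 0 of 4 passed the quasi-likelihood test of edgeR after Benjamini-Hochberg adjustment over all tested features, and 0 had an unadjusted p below 0.05. The background was 118 of 1761 features called (6.7%) and 9 of 196 microRNAs called (4.59%), so 0 of 4 is not a result about these members. DESeq2, which called 11% of features and 12.2% of microRNAs, also called 0 of 4. So did limma-voom, which called 121 of 1761 features and 10 of 196 microRNAs. Each of these 2 gave 1 of 4 an unadjusted p below 0.05, hsa-miR-196a-5p. Over all 1761 features, an unadjusted p below 0.05 was found for 379 with edgeR, 402 with DESeq2 and 383 with limma-voom. The unadjusted counts are therefore not a result about these members either. The CPM ranges of the groups overlapped for all 4, against 13.3% of features and 11.2% of microRNAs whose ranges did not.

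hsa-miR-10a-5p, the anterior-side HOXB cluster microRNA, gave 24.5, 33.8, 29.7 and 43.9 CPM in the scramble group, in replicate order, and 47.8, 41.5, 24.4 and 27.8 CPM in the tDR group. tDR libraries 1 and 2 were high and tDR libraries 3 and 4 low, and the groups overlapped. The means were 33.0 ± 8.22 and 35.4 ± 11.1 CPM (SD, n = 4 each). The log2 fold change was 0.09 (SE 0.22, edgeR adjusted p = 0.866), with a 95% interval from -0.36 to 0.55. Its sign turned under total-count scaling (-0.055), without scramble library 1 (-0.029) and without tDR library 1 (-0.10).

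hsa-miR-10b-5p, its counterpart in the HOXD cluster, gave 9.91, 11.0, 15.7 and 20.1 CPM in the scramble group and 20.7, 21.0, 8.91 and 8.94 CPM in the tDR group. The tDR libraries again fell into a high pair, 1 and 2, and a low pair, 3 and 4, which enclosed the whole scramble range. The means were 14.2 ± 4.69 and 14.9 ± 6.91 CPM, and the log2 fold change was 0.07 (SE 0.29, edgeR adjusted p = 0.931), with a 95% interval from -0.54 to 0.68. The sign turned under total counts (-0.097). It also turned when scramble library 1 (-0.074), scramble library 2 (-0.076), tDR library 1 (-0.16) or tDR library 2 (-0.14) was left out.

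hsa-miR-196a-5p, from the posterior parts of the HOXB and HOXC clusters, gave 19.1, 18.8, 23.4 and 22.1 CPM in the scramble group and 19.2, 19.2, 12.3 and 11.3 CPM in the tDR group. tDR libraries 3 and 4 were below every scramble library, while tDR libraries 1 and 2 lay within the scramble range. The means were 20.8 ± 2.27 and 15.5 ± 4.30 CPM, with a log2 fold change of -0.42 (SE 0.20) and a 95% interval from -0.85 to 0.0044. It had the lowest p of the 4 but did not pass (edgeR adjusted p = 0.236). Over 20 alternative settings its log2 fold change was below 0 in 20, from -0.58 to -0.11, with adjusted p from 0.0853 to 0.831. The median log2 fold change of all tested microRNAs was itself below 0 in the main fit, at -0.33.

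hsa-miR-196b-5p, the HOXA cluster paralog of miR-196a, gave 44.8, 43.4, 52.8 and 57.8 CPM in the scramble group and 62.4, 48.9, 36.2 and 32.8 CPM in the tDR group. tDR library 1 was the highest of the 8 and tDR libraries 3 and 4 the lowest. The means were 49.7 ± 6.80 and 45.1 ± 13.5 CPM, and the log2 fold change was -0.14 (SE 0.19, edgeR adjusted p = 0.768), with a 95% interval from -0.53 to 0.25. The sign turned to 0.17 both with scaling on microRNAs alone and without tDR libraries 3 and 4.

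**Figure D2:**
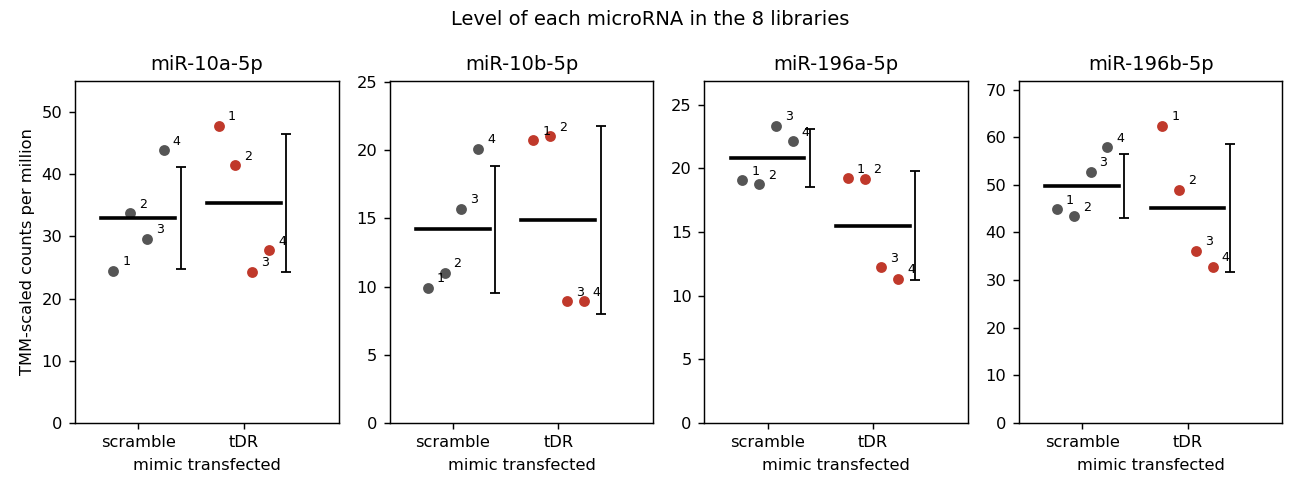
TMM-scaled CPM of each microRNA in the 8 libraries, with replicate numbers beside the points, the group mean as a line and the SD as a bar. In every panel tDR libraries 1 and 2 lie above tDR libraries 3 and 4.

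All 4 members were lower in tDR libraries 3 and 4 than in tDR libraries 1 and 2, and those libraries had the lowest microRNA percentages. Without them, an alternative chosen after seeing the data, the log2 fold changes were 0.43 for hsa-miR-10a-5p, 0.56 for hsa-miR-10b-5p, -0.11 for hsa-miR-196a-5p and 0.17 for hsa-miR-196b-5p, and 0 of 4 were called, the lowest edgeR adjusted p being 0.257. In that fit 119 of 1924 features and 6 of 221 microRNAs were called. The unadjusted edgeR p was below 0.05 for 2 of the 4 members, hsa-miR-10a-5p and hsa-miR-10b-5p, and for 341 of the 1924 features. In this bulk measurement fewer copies per cell and fewer cells carrying a microRNA cannot be told apart.

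Set against other microRNAs, the members differed in where they stood. The median log2 fold change over the 4 was -0.036, beside -0.33 over all 196 tested microRNAs and 0.02 over all tested features. hsa-miR-10a-5p, hsa-miR-10b-5p and hsa-miR-196b-5p lay 0.43, 0.40 and 0.19 above the microRNA median on the log2 scale, and hsa-miR-196a-5p 0.092 below it. By log2 fold change, highest first, miR-10a, miR-10b, miR-196b and miR-196a ranked 28th, 33rd, 56th and 117th of the 196. Over the 20 alternatives miR-10a (0.34 to 0.51), miR-10b (0.30 to 0.64) and miR-196b (0.12 to 0.27) stayed above that median in 20, and miR-196a (-0.20 to -0.02) below it in 20. A change of scaling moves microRNAs and their median nearly together, and the fits share libraries. These counts are therefore not independent tests of the positions.

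Scaling on microRNAs alone, which moved the median of all features to 0.36 and that of microRNAs to 0.0047, placed the 4 at log2 fold changes of 0.42 (SE 0.19), 0.37 (SE 0.23), -0.12 (SE 0.19) and 0.17 (SE 0.19) for miR-10a, miR-10b, miR-196a and miR-196b. The 95% intervals ran from 0.01 to 0.82, -0.12 to 0.86, -0.53 to 0.29 and -0.24 to 0.57. None passed there either, with edgeR adjusted p of 0.182, 0.317, 0.698 and 0.577, where 158 of 1761 features (8.97%) and 6 of 196 microRNAs (3.06%) were called.

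**Figure D3:**
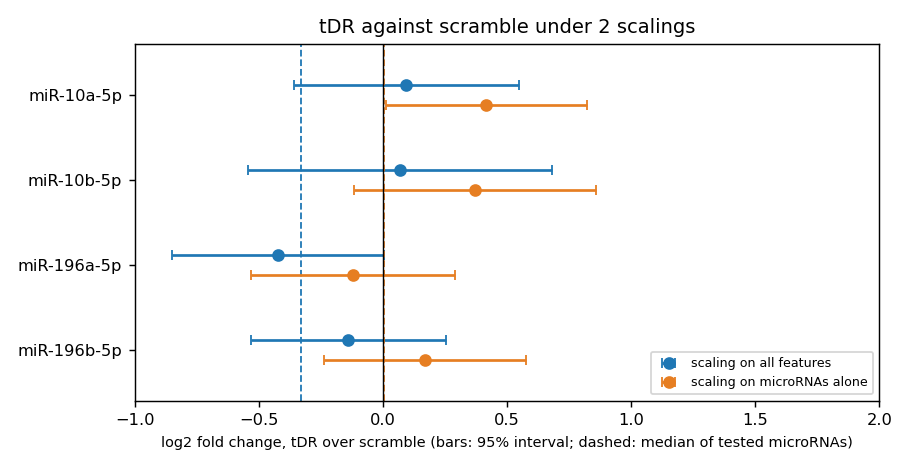
Log2 fold change of tDR over scramble for each microRNA with its 95% interval, under scaling on all features (blue) and on microRNAs alone (orange), with the median of tested microRNAs dashed. miR-10a, miR-10b and miR-196b lie to the right of the median of their own scaling and miR-196a to its left.

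As a share of microRNA counts, hsa-miR-10a-5p was higher in every tDR library than in any scramble library. In the scramble group it held 0.492% of microRNA counts in library 1 (exact binomial 95% limits of 0.425 and 0.567%), 0.537% in library 2 (limits 0.483 and 0.596%), 0.409% in library 3 (limits 0.342 and 0.485%) and 0.519% in library 4 (limits 0.475 and 0.566%). In the tDR group it held 0.745% in library 1 (limits 0.67 and 0.827%), 0.654% in library 2 (limits 0.578 and 0.737%), 0.615% in library 3 (limits 0.527 and 0.713%) and 0.676% in library 4 (limits 0.586 and 0.777%). The means were 0.489% ± 0.0567 and 0.673% ± 0.0546 (SD, n = 4 each). The groups did not overlap, also not between tDR libraries 3 and 4 and the scramble libraries. Such a rise of the share without overlap was found in 14 of 196 tested microRNAs (7.14%), and 1 of the 4 members is among them. Shares sum to 100%, so a share can rise because others fall, and the call adjusted over all features is the one given above for scaling on microRNAs alone.

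The other 3 shares overlapped between the groups. hsa-miR-10b-5p held 0.207% ± 0.0266 in the scramble and 0.274% ± 0.0614 in the tDR libraries, where tDR libraries 1 (0.323%) and 2 (0.332%) lay above the scramble range of 0.175 to 0.238% and tDR libraries 3 (0.225%) and 4 (0.217%) within it. hsa-miR-196a-5p held 0.316% ± 0.0508 and 0.297% ± 0.0148, and hsa-miR-196b-5p 0.751% ± 0.102 and 0.864% ± 0.0948. Together the 4 held 1.68 to 1.97% of microRNA counts in the scramble and 1.97 to 2.34% in the tDR libraries, ranges that overlap at scramble library 1 (1.974%) and tDR library 4 (1.968%).

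**Figure D4:**
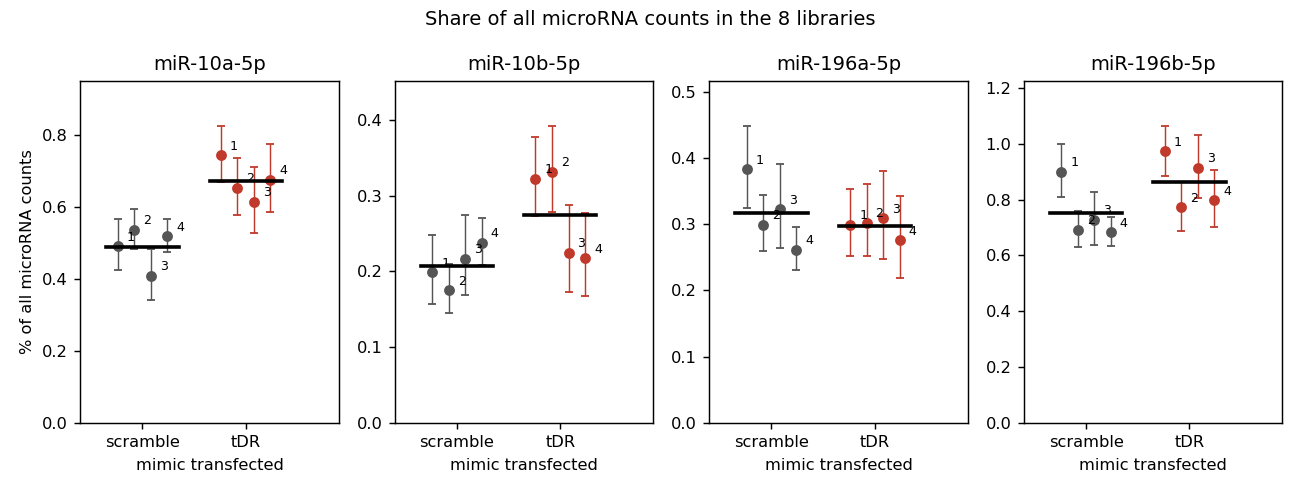
Share of all microRNA counts held by each microRNA in the 8 libraries, with 95% exact binomial intervals (counting error only) and the group mean as a line. The shares of miR-10a do not overlap between the groups (0.409 to 0.537% against 0.615 to 0.745%), whereas those of the other 3 do.

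Counting error was part of the spread, to a degree that differed between members and groups. The members had between 64 (hsa-miR-10b-5p) and 664 (hsa-miR-196b-5p) counts per library. The SD of a share over libraries was 2.6 times the SD that counting alone gives for miR-196b in the scramble libraries, 1.80 times for miR-10a, 2.0 times for miR-196a and 1.29 times for miR-10b. In the tDR libraries these ratios were 1.91, 1.25, 0.506 and 2.19. A value below 1, as for miR-196a, is a spread smaller than counting gives on average. Reads without molecular identifiers are not independent molecules, so these intervals cover counting error only.

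Ratios within a library, which no scaling can change, were used to compare paralogs. hsa-miR-10a-5p had 2.47, 3.07, 1.89 and 2.18 counts per count of hsa-miR-10b-5p in the scramble group, in replicate order, and 2.31, 1.97, 2.73 and 3.11 in the tDR group. The groups overlapped fully, and the log2 ratio (0.5 added to each count) differed by 0.076 (exact permutation p = 0.743, two-sided, adjusted p = 0.743 over the 2 ratios tested). That sign turned without scramble library 3 (-0.033) or tDR library 4 (-0.029). How reads that match both miR-10 paralogs were assigned is not stated, and this ratio may also depend on it.

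hsa-miR-196a-5p had 0.425, 0.432, 0.443 and 0.383 counts per count of hsa-miR-196b-5p in the scramble group and 0.308, 0.392, 0.339 and 0.345 in the tDR group. tDR library 2 was the only tDR library above the lowest scramble library, number 4. The mean log2 ratio was -1.25 ± 0.0936 in the scramble and -1.53 ± 0.143 in the tDR libraries, a difference of -0.28 that did not pass (exact permutation p = 0.0571, two-sided, adjusted p = 0.114 over the 2 ratios tested). The smallest p that 4 against 4 libraries can give is 0.0286. Since these strands differ at the base A12C alone, this ratio also depends on how reads with errors there were assigned.

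The summed miR-10 counts were 0.539, 0.720, 0.596 and 0.801 of the summed miR-196 counts in the scramble group and 0.840, 0.918, 0.687 and 0.832 in the tDR group. This ratio was chosen after the values were seen and was not tested. tDR libraries 1, 2 and 4 were above every scramble library, while tDR library 3 lay within their range. In all 8 libraries the miR-196 strands had more counts than the miR-10 strands.

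**Figure D5:**
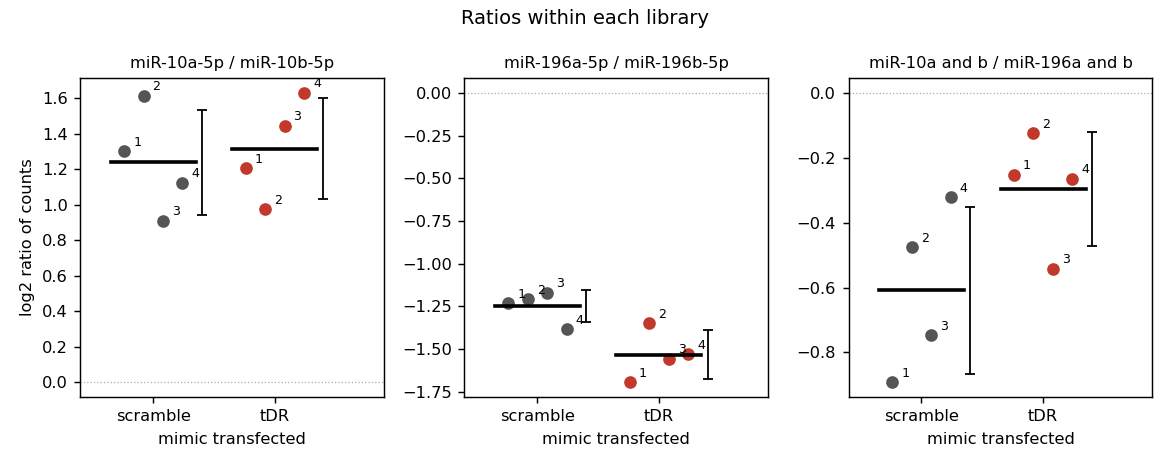
Log2 ratios of counts within each library for miR-10a over miR-10b, miR-196a over miR-196b and summed miR-10 over summed miR-196, with replicate numbers, the group mean as a line and the SD as a bar. The miR-196a to miR-196b ratio averages -1.25 in the scramble and -1.53 in the tDR libraries, and the groups overlap in each panel.

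The opposite arms of the hairpins, usually the passenger strands that are discarded after processing, were much rarer. Over the 8 libraries hsa-miR-10a-3p had 223 counts, hsa-miR-196b-3p 126, hsa-miR-10b-3p 54 and hsa-miR-196a-1-3p, from MIR196A1, 41. The 5p strand was 89.4% ± 2.63 of the counts of both miR-10a arms in the scramble and 91.5% ± 2.23 in the tDR libraries. For miR-10b it was 92.9% ± 1.96 and 95.7% ± 2.14, and for miR-196b 95.9% ± 1.33 and 96.2% ± 1.31 (SD, n = 4 each). The groups overlapped in each case. Thus miR-10a had the largest 3p portion of these 3 hairpins on the means. hsa-miR-10b-3p and hsa-miR-196a-1-3p did not pass the filter on low counts, and hsa-miR-10a-3p and hsa-miR-196b-3p had log2 fold changes of -0.29 (SE 0.32) and -0.34 (SE 0.39), neither called (edgeR adjusted p = 0.687 and 0.707).

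hsa-miR-615-3p, whose hairpin MIR615 lies in the HOXC cluster (chr12:54033950-54034045, plus strand, in an intron of HOXC5), had fewer counts than the members. It stood at 2.16, 1.80, 3.37 and 3.13 CPM in the scramble group and at 1.50, 1.56, 0.557 and 0 CPM in the tDR group, from 11, 10, 4 and 0 counts. Every tDR library was below every scramble library. The row passed the low-count filter through the scramble group, where it is high, and could not have passed on the tDR libraries alone. It was absent from the fit limited to a mean count of at least 50. CPM ranges without overlap, in either direction, were found in 11.2% of tested microRNAs and 13.3% of tested features. Taken as an upper limit of 3 counts, the 0 among the 29421 microRNA counts of tDR library 4 allows a share of up to 0.0102%, and its exact binomial 95% upper limit is 0.0125%. Its log2 fold change was -1.51 (SE 0.55) and missed the threshold (edgeR adjusted p = 0.109). DESeq2 called it (adjusted p = 0.0398), and over its 19 alternatives the log2 fold change ran from -2.12 to -0.74, with 18 not called (adjusted p up to 0.453). The -0.74 and the edgeR adjusted p of 0.453 came from the fit without tDR libraries 3 and 4. Of the 7 other arms and other HOX-cluster microRNAs looked for, 5 had rows and 3 were tested. edgeR called 0 of the 3 in either direction, against 4.59% of microRNAs called. It gave 1 of the 3, hsa-miR-615-3p, an unadjusted p below 0.05, against 379 of 1761 tested features at that threshold. DESeq2 called 1, hsa-miR-615-3p, against 12.2% of microRNAs.

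The miR-99 strands, relatives of miR-10 outside the HOX clusters, are carried in clusters with let-7 and miR-125. hsa-miR-99a-5p stood at 8.43 ± 2.41 and 8.18 ± 2.40 CPM and hsa-miR-99b-5p at 6.29 ± 1.12 and 4.82 ± 1.40 CPM in scramble and tDR libraries, with log2 fold changes of -0.04 (SE 0.26) and -0.38 (SE 0.26). Of these 2, 0 were called (edgeR adjusted p = 0.948 and 0.433), against 4.59% of microRNAs called. hsa-miR-100-5p was not analysed here. hsa-miR-10a-5p was thus at 3.91 times the level of hsa-miR-99a-5p on the scramble means, for strands of 23 and 22 bases. The share of hsa-miR-99a-5p did not overlap between the groups either, at 0.110 to 0.142% in the scramble and 0.146 to 0.170% in the tDR libraries, a rise without overlap found in 7.14% of tested microRNAs.

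Of the 5 cluster partners, hsa-let-7a-5p (98.0 ± 18.6 CPM in scramble, 94.8 ± 22.9 in tDR libraries), hsa-miR-125a-5p (64.1 ± 7.58 and 55.1 ± 12.5), hsa-miR-125b-5p (51.9 ± 10.2 and 41.3 ± 11.6), hsa-let-7c-5p (5.15 ± 0.955 and 5.40 ± 0.927) and hsa-let-7e-5p (5.78 ± 1.82 and 4.63 ± 1.72), 0 were called by edgeR, DESeq2 or limma-voom, and 0 had an unadjusted edgeR p below 0.05. Their log2 fold changes ran from -0.33 to 0.05, with a median of -0.22. Among the 196 tested microRNAs edgeR called 4.59%, DESeq2 12.2% and limma-voom 10, so 0 of 5 is not a result about these partners. An unadjusted edgeR p below 0.05 was found for 379 of 1761 tested features. The share of hsa-let-7a-5p was also higher in every tDR library, at 1.62 to 1.95% against 1.38 to 1.57% in the scramble libraries. Such a rise without overlap was found in 7.14% of tested microRNAs. The mature let-7a strand, which holds the miR-196 seed letters, has several source genes and is not specific to the miR-100 cluster.

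The microRNAs whose levels ran most like each member were found over the 8 libraries among 54 others with a mean count of at least 100, by Pearson's r of log2 CPM. They were hsa-miR-218-5p (r = 0.92) and hsa-miR-10b-5p (0.90) for hsa-miR-10a-5p, and hsa-let-7a-5p (0.95) and hsa-miR-9-5p (0.90) for hsa-miR-10b-5p. For hsa-miR-196a-5p they were hsa-miR-342-3p (0.97) and hsa-miR-221-3p (0.95), and for hsa-miR-196b-5p hsa-miR-21-5p (0.96) and hsa-miR-17-5p (0.95). All microRNAs share the microRNA percentage of each library, and the median r over the 54 was 0.59 for miR-10a, 0.74 for miR-10b, 0.85 for miR-196a and 0.77 for miR-196b. Between members r was 0.90 for the miR-10 paralogs and 0.87 for the miR-196 paralogs, values that may depend on read assignment. Across the families it was 0.88 for miR-10b with miR-196b, 0.77 for miR-10a with miR-196b, 0.71 for miR-10b with miR-196a and 0.51 for miR-10a with miR-196a, so the first of these lay between the paralog pairs. These values are descriptions of 8 libraries.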

How the data were processed

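The authors deposited raw read counts per small RNA feature and a second table of normalized signal, in which each deposited count was divided by a factor per library that is 1 value for microRNAs and other RNAs and another for tRNA features; those factors' origin, aligner, counter and annotation: not given in the sources used here. Per the submitters' processing notes the genome build was hg38. Groups and replicate numbers come from the labels. Rows scr and scr2 name no gene and were left out.

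The deposited counts went into edgeR 4.0.16 under R 4.3.3, with the filterByExpr filter, TMM factors and a robust quasi-likelihood fit without covariates, Benjamini-Hochberg adjusted p below 0.05 over 1761 tested features. SE was derived from the fold change and its F statistic, and intervals from SE and the fit's degrees of freedom. Alternatives used DESeq2 1.42.0, limma 3.58.1 (voom, and log2 of the deposited signal plus 1), other scalings and filters, shared reads taken once (counts within 10% or 3 in every library), a replicate block and libraries left out. The fit was tested on simulated data. Over 12 replicate pairs chi-square was at least 13.2 per degree of freedom, so no pair was a copy.

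Named were the 4 members, listed relatives and marker lists, the 3 most abundant microRNAs, neighbours in level and the 2 most similar microRNAs per member. Members and lists were chosen with earlier results of these data known.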

Additional observations from a re-analysis of the deposited data

Results flagged for a closer look

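In groups of 4 libraries, values were looked for that stood far from the other 3, which chance gives in about 1 of 20 groups, and 50 groups were examined. hsa-miR-196a-1-3p stood at 1.40 CPM in tDR library 2, against 0.417 to 0.558 CPM in the other tDR libraries, from 9 counts. The 4 HOX-cluster microRNAs together held 1.974% of microRNA counts in scramble library 1, against 1.68 to 1.70% in the other scramble libraries.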

How the results depend on the processing

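None of the 4 members was called under any of 20 alternatives. The log2 fold change of hsa-miR-196a-5p kept its direction in 20, beside a main-fit median of -0.33 over all tested microRNAs. Those near 0 changed sign: hsa-miR-10a-5p under total counts (-0.055) and among fits with 1 library left out (-0.10 to 0.24); hsa-miR-10b-5p under total counts (-0.097), a mean count of at least 50 (-0.029), limma-voom (-0.0048) and with 1 library left out (-0.16 to 0.28); and hsa-miR-196b-5p with scaling on microRNAs alone (0.168) and without tDR libraries 3 and 4 (0.166). The miR-10a to miR-10b difference ran from -0.033 to 0.20 with 1 library left out, and that of miR-196a to miR-196b from -0.35 to -0.23; 4 against 3 libraries cannot give a p below 0.0571. The cause of these changes was not tested. The scramble shares moved by less than 1 SD with a mean count of at least 10 in the denominator and with counts per base. Shares per base were not run for hsa-miR-10b-5p. Leaving out 1 of 4 libraries cannot move a mean by 1 SD, so those alternatives do not bear on this.

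The count of called features, 118, was 194 with the DESeq2 test, 39 with the replicate block, and 65 to 164 with 1 library left out (65 without scramble library 2, 70 without scramble library 3). With the replicate block the members stood at 0.081, 0.025, -0.45 and -0.17 for miR-10a, miR-10b, miR-196a and miR-196b, with 0 called. Same-numbered libraries correlated at -0.34 to -0.12 in their deviations from the group means, and 0 of 8 correlated best with its own number, so the numbers give no sign of pairing. The members had 64 to 664 counts per library, and the SD of their shares was 0.506 to 2.6 times that of counting error. The narrowest 95% interval of a log2 fold change, that of hsa-miR-196b-5p, ran from -0.53 to 0.25.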
